A study of Homo sapiens with 12 samples.

Results

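The genes described here are 8 receptor tyrosine kinases of liver cells (EGFR, ERBB2, ERBB3, MET, FGFR4, FGFR3, IGF1R and INSR), the hormone FGF19 and its co-receptor KLB. They were chosen by name as the growth factor receptors of hepatocellular carcinoma (HCC) and the FGF19 axis, and make up 10 of the 60666 genes listed. RNA was sequenced from Huh7, an established HCC line grown in high-glucose DMEM. The control libraries (control, 3 libraries) came from cells with a lentiviral vector carrying a control sequence, and the knockdown libraries (shFAM111B, 3 libraries) from cells stably expressing a short hairpin RNA against FAM111B, both after puromycin selection. FAM111B encodes a trypsin-like protease, and the study asked how its loss changes HCC cells and their response to lenvatinib, an inhibitor of receptor tyrosine kinases. Nothing in the labels says that the 3 libraries of a group came from separate cultures, so the p-values measure the spread between these libraries, which may be technical. Values are TPM, transcript abundances corrected for gene length and scaled to a common total per library. The number of reads behind a TPM value is not kept, so depth is unknown.

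A receptor tyrosine kinase binds a growth factor outside the cell, pairs with a second receptor and phosphorylates tyrosines on its own tail, to which adaptor proteins dock and pass the signal to the RAS-MAPK and PI3K-AKT pathways. FGF19 is an endocrine fibroblast growth factor of the intestine that reaches the liver with the portal blood. It needs the membrane protein KLB (beta-Klotho) to bind FGFR4 on hepatocytes, where the signal represses bile acid synthesis, and some HCC make FGF19 themselves.

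In shFAM111B libraries the RNA of all 10 genes was below every control library. The falls were largest for EGFR, KLB and IGF1R, to about 29.7%, 30.9% and 23.8% of the control mean, and smallest for FGFR4 and ERBB3, to 74.4% and 75.4%. Log2(TPM + 1) was fitted with limma over the 14394 genes that reached 1 TPM in 3 or more libraries, and a gene was called lower or higher where it changed 2-fold or more with P under 0.05, the thresholds of the study. All 10 genes passed that filter. EGFR, KLB and IGF1R were called lower and none was called higher, against 23.7% of all tested genes called lower and 6.82% called higher. The paper's own Huh7 list at those thresholds had slightly more genes up than down, unlike the calls here, which were mostly lower. At an adjusted p under 0.05, whatever the size, all 10 were lower, against 50.9% of tested genes lower and 21.1% higher. The knockdown values lay wholly below the control values for 52.8% of tested genes and wholly above for 22.5%, so that lower values were common among all genes. In bulk RNA, fewer cells with a transcript and less of it per cell cannot be told apart.

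The scale of the libraries matters for these counts. In TPM as deposited, the log2 fold change of the median tested gene was −0.36. The genes of the mitochondrial chromosome took 20.2%, 20.2% and 19.7% of the TPM of the control libraries against 7.82%, 8.06% and 7.37% in shFAM111B. Short non-coding RNAs took 0.496%, 0.420% and 0.167% against 4.83%, 7.10% and 0.517%. Their part in the results was not tested. The median of the 10 genes was a log2 fold change of −0.88, which is −0.52 relative to the median tested gene. When the libraries were rescaled by median-of-ratios, upper-quartile, quantile or median centring, EGFR, KLB and IGF1R were still called lower, against 12.5%, 13.3%, 12.8% and 9.07% of all tested genes, whereas the sign of ERBB3 (3 of these 4) and of FGFR4 (2 of 4) turned. Of the calls over all genes, 22.3% were higher as deposited, against 53.0%, 49.9%, 47.8% and 66.6% under those 4 scalings, 16.5% when mitochondrial and short non-coding RNAs were left out of the total and 46.6% with the length and expression trend removed. The share of all tested genes called higher was 14.1%, 13.2%, 11.8% and 18.0% under the 4 scalings. Leaving those RNAs out of the total, the last of 5 scalings used below, gave 28.6% lower and 5.66% higher, and removing the trend 10.2% and 8.89%.

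The target of the knockdown was read first. FAM111B stood at 7.84, 8.29 and 7.99 TPM in control libraries and at 0.96, 1.13 and 0.84 TPM in shFAM111B libraries. All 3 knockdown libraries were far below the controls, with 12.1% of the mean level left and a log2 fold change of −2.20 (SE 0.113, adjusted p = 6.09e-06). The liver identity of the line was visible in AFP and ALB, which stood at 7274 ± 200 and 6444 ± 41.1 TPM (SD, n = 3) in control libraries.

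The 3 called genes and the most abundant receptor are introduced by their promoters, shown to set the genes that fell most beside one that fell little. The sequences, from RefSeq on GRCh38.p14, span an annotated start, mostly its upstream side, and are written 5′ to 3′ on the strand of the gene. Capitals mark GC boxes, GGGCGG or its reverse complement CCGCCC. The EGFR window is chr7:55018767-55019066 (plus strand), the KLB window chr4:39406680-39406979 (plus), the IGF1R window chr15:98648289-98648588 (plus) and the FGFR4 window chr5:177086665-177086964 (plus).
EGFR: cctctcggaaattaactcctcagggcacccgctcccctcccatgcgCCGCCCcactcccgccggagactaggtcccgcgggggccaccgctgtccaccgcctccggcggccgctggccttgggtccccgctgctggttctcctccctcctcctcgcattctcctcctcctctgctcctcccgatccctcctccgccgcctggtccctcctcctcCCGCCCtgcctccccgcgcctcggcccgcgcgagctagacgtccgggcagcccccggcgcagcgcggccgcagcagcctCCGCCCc
KLB: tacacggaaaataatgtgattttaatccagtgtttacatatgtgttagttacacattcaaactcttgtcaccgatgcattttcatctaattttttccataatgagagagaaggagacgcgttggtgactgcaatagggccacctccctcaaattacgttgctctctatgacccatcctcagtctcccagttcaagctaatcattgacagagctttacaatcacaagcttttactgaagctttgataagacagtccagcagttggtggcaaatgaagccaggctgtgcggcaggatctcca
IGF1R: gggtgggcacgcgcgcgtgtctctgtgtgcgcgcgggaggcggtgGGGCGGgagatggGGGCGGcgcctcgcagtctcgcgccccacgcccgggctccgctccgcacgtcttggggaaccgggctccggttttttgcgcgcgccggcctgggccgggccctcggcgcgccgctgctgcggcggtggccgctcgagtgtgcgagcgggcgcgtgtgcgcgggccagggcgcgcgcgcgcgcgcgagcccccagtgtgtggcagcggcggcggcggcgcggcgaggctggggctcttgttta
FGFR4: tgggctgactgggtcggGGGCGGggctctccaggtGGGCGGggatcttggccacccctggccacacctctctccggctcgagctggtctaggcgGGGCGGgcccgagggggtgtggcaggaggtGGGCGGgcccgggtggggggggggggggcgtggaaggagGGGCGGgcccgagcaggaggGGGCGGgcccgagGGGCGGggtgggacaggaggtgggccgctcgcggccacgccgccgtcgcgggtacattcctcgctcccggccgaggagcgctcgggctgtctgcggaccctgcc
RefSeq promoters were matched for 8 of the 10 genes, and the table holds 2 windows each for EGFR and FGFR4, of which those at the annotated start of the gene are printed. The windows of EGFR, IGF1R and FGFR4 are rich in G and C, at 75.3%, 79.7% and 78.7%, and hold 3, 2 and 7 GC boxes. The KLB window has a GC content of 42.3% and no GC box, below the median of 58.7% over all promoters of the table. A GC box occurs in 45.0% of the 35116 promoters of that length. TATAAA, searched on both strands, was found in none of the 4 printed windows and occurs in 11.5% of all, and CCAAT was found in none of the 4 and occurs in 34.6%. The second window of EGFR, at chr7:55109589-55109888, has a GC content of 42.0%, close to that of KLB, with no GC box and 2 TATAAA matches, and the second of FGFR4, at chr5:177089300-177089599, has 57.3% and none of these motifs. Which start the Huh7 transcripts use was not tested. Among the other receptors the windows of FGFR3, INSR and MET held 8, 4 and 3 GC boxes, and the ERBB2 window held none and 1 CCAAT.

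FGF19, the ligand, lies on the minus strand of chromosome 11 (69698232 to 69704642, GRCh38, GENCODE release 29). Its RNA was at 13.63, 10.91 and 14.76 TPM in control libraries and at 6.52, 6.71 and 6.58 TPM in shFAM111B libraries. The knockdown libraries were tightly grouped and all lay below the lowest control. The ratio of the means was 1.98, and the log2 fold change was −0.88 (SE 0.119, adjusted p = 0.000439), which is −0.52 relative to the median gene. FGF19 stayed lower at an adjusted p under 0.05 under all 5 scalings tried, with log2 fold changes from −1.02 to −0.35.

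KLB (chromosome 4, 39406853 to 39451536, plus strand), the co-receptor without which FGF19 binds FGFR4 poorly, fell further than the ligand and the receptor. It was at 51.50, 46.86 and 45.96 TPM in control libraries and at 14.70, 15.77 and 14.19 TPM in shFAM111B libraries. The highest knockdown library was far below the lowest control. Its log2 fold change was −1.63 (SE 0.0728, adjusted p = 4.1e-06), from −1.76 to −1.09 over the 5 scalings. Among all tested genes it lay at percentile 7.39 of the fold changes, so that a fall of this size was not rare in these libraries.

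FGFR4 (chromosome 5, 177086886 to 177098144, plus strand), the hepatocyte receptor for FGF19, was the most abundant of the 10 in both groups. It stood at 268.25, 254.51 and 289.44 TPM in control libraries and at 207.76, 191.92 and 204.40 TPM in shFAM111B libraries. The groups did not overlap, and the log2 fold change was −0.42 (SE 0.0606, adjusted p = 0.000586), only −0.06 from the median gene. The value depended on the scaling. It was −0.60 with quantile normalization (adjusted p = 0.00015) and −0.55 with mitochondrial and short non-coding RNA left out, −0.01 with upper-quartile scaling, and its sign turned with median-of-ratios scaling (0.03) and median centring (0.11).

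Because KLB fell far more than FGFR4, their ratio within a library moved. FGFR4 RNA was 5.65 ± 0.575 times KLB RNA in control libraries and 13.6 ± 1.22 times in shFAM111B libraries (SD, n = 3 each). The ratios did not overlap. A factor common to a whole library leaves such a ratio as it is, but quantile normalization, which reshapes each library, gave 6.80 ± 0.864 and 10.7 ± 0.829, still without overlap. Neither corrects for transcript length. With the length and expression trend removed, the log2 fold changes of KLB and FGFR4 were closer, at −0.86 and −0.265, than −1.63 and −0.42 as deposited. The two-sided exact permutation test gave p = 0.1, the smallest that 3 libraries against 3 allow, so this design cannot pass 0.05 for a single value. This ratio and 5 others given below were chosen after their values had been seen, and the adjusted p over the 6 was also 0.1 (exact test).

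FGFR3 (chromosome 4, 1793293 to 1808872, plus strand), a related receptor that binds mainly paracrine fibroblast growth factors, was second in abundance. It was at 85.61, 93.85 and 97.33 TPM in control libraries and at 48.15, 50.96 and 49.12 TPM in shFAM111B libraries. All knockdown libraries were lower, with a log2 fold change of −0.89 (SE 0.0623, adjusted p = 1.91e-05), from −1.02 to −0.35 over the scalings. FGFR4 RNA was 2.94 ± 0.213 times FGFR3 RNA in control libraries and 4.08 ± 0.283 times in shFAM111B libraries, without overlap (SD, n = 3 each; exact permutation p = 0.1), but after quantile normalization the ratios were 3.28 ± 0.286 and 3.56 ± 0.202 and overlapped (exact p = 0.3). With the length and expression trend removed, the log2 fold changes of FGFR3 and FGFR4 were −0.38 and −0.265.

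In the ERBB family, EGFR fell most, ERBB2 less and ERBB3 least. EGFR (chromosome 7, 55019021 to 55211628, plus strand), the receptor of EGF, amphiregulin and related ligands, was at 36.62, 34.95 and 34.15 TPM in control libraries. In shFAM111B libraries it was at 9.33, 11.47 and 10.58 TPM, less than any control by a wide margin. The log2 fold change was −1.66 (SE 0.0870, adjusted p = 6.42e-06), from −1.80 to −1.13 over the scalings. The antisense gene EGFR-AS1, which overlaps EGFR, averaged 4.89 TPM in control and 3.70 TPM in shFAM111B libraries. The strand setting of the counting is not given in the sources used here, so reads of overlapping genes may not be told apart.

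ERBB2 (chromosome 17, 39687914 to 39730426, plus strand) has no known ligand and serves as the preferred partner of the other family members. It was at 56.11, 55.87 and 65.87 TPM in control libraries and at 29.98, 29.79 and 28.10 TPM in shFAM111B libraries. Control replicate 3 was the highest, and the knockdown libraries lay within 2 TPM of each other. Its log2 fold change of −0.99 (SE 0.0786, adjusted p = 3.22e-05) fell just short of the fold of 2 on the log2(TPM + 1) scale, although the ratio of mean TPM was 2.02. With a pseudocount of 0.1 it was called lower, and 4 of the 6 fits that left out 1 library called it lower. The overlapping gene MIEN1 on the opposite strand was higher in the knockdown, at a mean of 49.5 TPM against 24.9 TPM, the direction opposite to that of ERBB2. PGAP3, which also overlaps ERBB2 on that strand, averaged 6.87 TPM against 8.98 TPM.

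ERBB3 (chromosome 12, 56076799 to 56103505, plus strand), a neuregulin receptor with little kinase activity of its own, changed least. It was at 45.42, 47.44 and 47.58 TPM in control libraries and at 36.05, 33.65 and 36.19 TPM in shFAM111B libraries. The groups did not overlap, yet the log2 fold change of −0.40 (SE 0.0564, adjusted p = 0.000561) was −0.04 from the median gene. It was 0.05 with median-of-ratios, 0.01 with upper-quartile scaling, 0.14 with median centring and −0.07 with quantile normalization, none at an adjusted p under 0.05, and −0.53 with mitochondrial and short non-coding RNA left out. The balance within the family moved with these differences. EGFR RNA was 0.599 ± 0.0710 of ERBB2 RNA in control and 0.358 ± 0.0404 in shFAM111B libraries, and ERBB2 RNA was 1.27 ± 0.107 times and 0.831 ± 0.0544 times ERBB3 RNA (SD, n = 3 each; no overlap, exact permutation p = 0.1 for each). ERBB2 was thus above ERBB3 in every control library and below it in every shFAM111B library.

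MET (chromosome 7, 116672390 to 116798386, plus strand), the receptor of hepatocyte growth factor, was at 19.15, 15.38 and 16.29 TPM in control libraries. It was at 8.40, 10.65 and 9.91 TPM in shFAM111B libraries. Every knockdown library was lower, and control replicate 1 was the highest of the 6. The log2 fold change was −0.75 (SE 0.119, adjusted p = 0.000972), from −0.88 to −0.22 over the scalings, and 3 of the 5 kept an adjusted p under 0.05. EGFR RNA was 2.09 ± 0.180 times MET RNA in control libraries and 1.09 ± 0.0227 times in shFAM111B libraries, without overlap (SD, n = 3 each; exact permutation p = 0.1).

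The insulin and IGF receptors are close relatives that can form hybrids, and they differed in the size of their change. IGF1R (chromosome 15, 98648539 to 98964530, plus strand) was at 6.27, 7.90 and 6.76 TPM in control libraries and at 1.55, 1.90 and 1.53 TPM in shFAM111B libraries. It was the least abundant of the 10 in both groups, and its ratio of mean TPM was the widest, at 4.20. On the log2(TPM + 1) scale, which understates the change of low genes, the fold change was −1.58 (SE 0.129, adjusted p = 3.59e-05), from −1.75 to −1.05 over the scalings. INSR (chromosome 19, 7112255 to 7294034, minus strand) was at 12.58, 11.73 and 13.07 TPM in control libraries and at 7.43, 8.02 and 9.15 TPM in shFAM111B libraries. Every knockdown library was lower as deposited, with a log2 fold change of −0.55 (SE 0.0996, adjusted p = 0.00191), but with quantile normalization and median centring the values were −0.02 and −0.02. Only 1 of the 5 scalings kept INSR at an adjusted p under 0.05. The IGF1R to INSR ratio was 0.563 ± 0.0961 in control and 0.204 ± 0.0351 in shFAM111B libraries, without overlap (SD, n = 3 each; exact permutation p = 0.1).

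The order of the levels changed at a few places. In control libraries it was FGFR4, FGFR3, ERBB2, KLB, ERBB3, EGFR, MET, FGF19, INSR and IGF1R from high to low, and only the neighbours KLB and ERBB3, and FGF19 and INSR, overlapped. In shFAM111B libraries it was FGFR4, FGFR3, ERBB3, ERBB2, KLB, EGFR, MET, INSR, FGF19 and IGF1R, with overlap only between EGFR and MET and between MET and INSR. KLB was level with ERBB3 in control libraries and below it in all shFAM111B libraries. EGFR was above MET within every library of both groups, but by less in shFAM111B, where the ranges of the 2 genes overlapped.

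A share within the 8 receptors is not changed by a factor common to the library, though quantile normalization does change it. The summed TPM of the 8 receptors were 530.0, 521.6 and 570.5 in control libraries and 348.7, 338.4 and 349.0 in shFAM111B libraries. FGFR4 took 50.0% ± 1.09 of that sum in control and 58.3% ± 1.45 in shFAM111B libraries (SD, n = 3 each), but 54.2% ± 1.47 and 53.9% ± 1.16, with overlap, after quantile normalization. ERBB3 also took a larger share, 8.67% ± 0.387 against 10.2% ± 0.237. The shares of EGFR (6.53% ± 0.484 against 3.03% ± 0.357), ERBB2 (10.9% ± 0.522 against 8.49% ± 0.389) and IGF1R (1.29% ± 0.191 against 0.482% ± 0.0694) were smaller in shFAM111B. FGFR3 went from 17.1% ± 0.920 to 14.3% ± 0.659, although with FGFR4 left out of the sum its share was 0.160 percentage points larger. In these 6 receptors the libraries did not overlap, and each had a two-sided exact permutation p of 0.1, adjusted over the 8 receptors to 0.133. MET (3.14% ± 0.413 against 2.80% ± 0.371, exact p = 0.4) and INSR (2.30% ± 0.0635 against 2.37% ± 0.245, exact p = 0.8) overlapped between the groups. After quantile normalization, EGFR, ERBB2 and IGF1R kept a smaller and ERBB3 a larger share without overlap (exact p = 0.1 each), FGFR3 overlapped, MET was 0.693 percentage points larger with overlap, and INSR was 0.932 larger without overlap.

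IGF1R and EGFR, both called lower, have the longest transcripts of the 10 genes. Over all tested genes the log2 fold change dropped with the length of the longest annotated transcript, from a median of 0.43 for genes up to 1000 nt, through 0.17 up to 2000 nt, −0.31 up to 4000 nt and −0.78 up to 8000 nt, to −0.94 above. IGF1R (12235 nt), EGFR (9821 nt) and INSR (8954 nt) belong to the longest class, in which 44.7% of genes were called lower, and FGF19 (2447 nt) and FGFR4 (3122 nt) to the middle one, with 18.7%. Relative to the median of their own length class, KLB was at −0.85, EGFR at −0.72, IGF1R at −0.64 and FGF19 at −0.57 on the log2 scale. ERBB2, FGFR3 and FGFR4 were at −0.21, −0.11 and −0.11, MET at 0.02, and ERBB3 and INSR at 0.38 and 0.39, above their class. With the trend of length and mean expression removed by a loess fit, none of the 10 was called lower, against 10.2% of all genes. INSR was then at 0.44 and ERBB3 at 0.29 (adjusted p = 0.00691 and 0.00331, limma), and MET was at 0.13. ERBB2, FGFR3 and FGFR4 were at −0.38, −0.38 and −0.265. KLB was then at −0.86, EGFR at −0.72, FGF19 at −0.63 and IGF1R at −0.58. The part of transcript length in the changes was not tested.

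**Figure D1:**
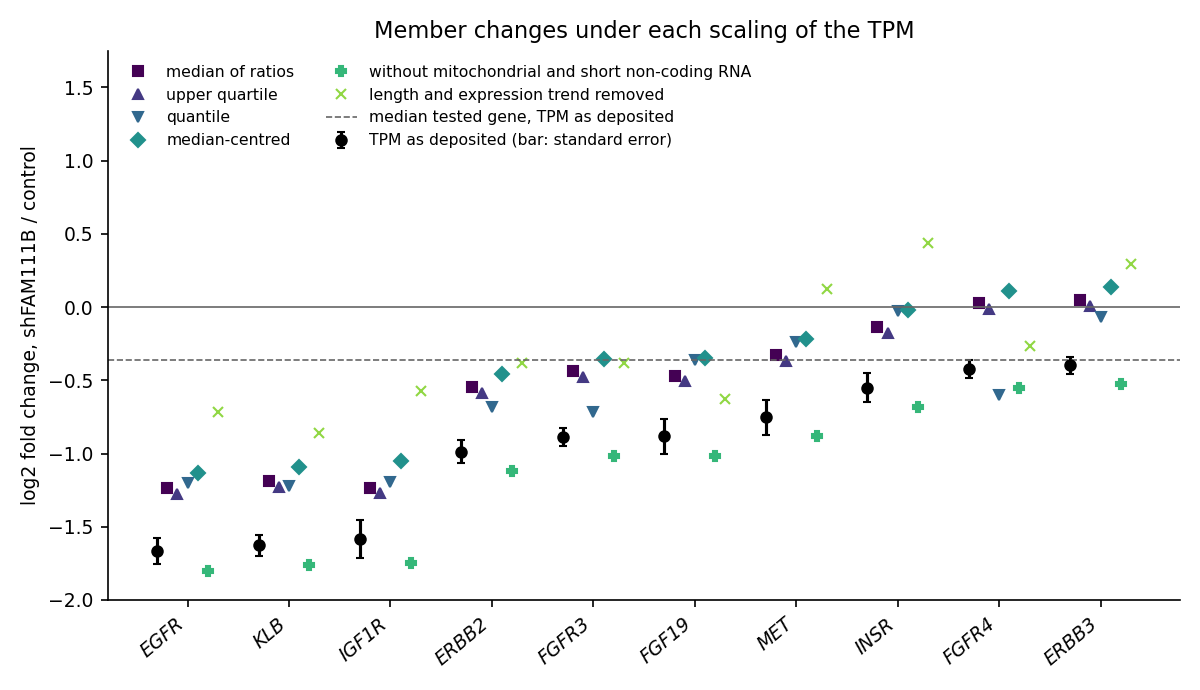
Log2 fold change of each of the 10 genes as deposited (black, with standard error), under the 5 other scalings and with the length and expression trend removed (crosses); the dashed line is the median tested gene as deposited. EGFR, KLB and IGF1R stay below −1 under all 5 scalings, whereas ERBB3 and FGFR4 cross 0 under some of them, and MET, INSR and ERBB3 cross 0 with the trend removed.

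Around these genes, lists of other pathway members were read in the same fit, by counts only. Of 58 receptor tyrosine kinases, 21 were tested, the 8 described above included, and 6 were called lower and 1 higher, against 23.7% and 6.82% of all genes. Over the 5 scalings 4 to 8 were called lower and 1 to 4 higher, against 9.07% to 28.6% and 5.66% to 18.0% of all genes. With the trend removed 2 and 4 were, against 10.2% and 8.89%. The other 37 had at most 1.13 TPM. The lower ones outside the 8 were LMTK2, a kinase of endosomal traffic (18.8 to 2.67 TPM, log2 fold change −2.43), the ephrin receptors EPHA2 (68.9 to 21.3 TPM, −1.65) and EPHA5 (−1.29), and the WNT-binding pseudokinase RYK (36.1 to 13.6 TPM, −1.36). LMTK2 and EPHA2 were called lower under all 5 scalings and EPHA5 and RYK under 1 of them. TYRO3, a receptor of GAS6 and protein S, was the one called higher, at 13.19, 14.15 and 16.40 TPM in control and 38.57, 33.82 and 35.71 TPM in shFAM111B libraries. It rose by 1.25 on the log2 scale (SE 0.0957, adjusted p = 2.72e-05) and was called higher under all 5 scalings. The median of the 21 was −0.60, or −0.24 relative to the median gene, and with the trend removed it was 0.10.

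Of 10 receptors inhibited by lenvatinib, 3 were tested. FGFR4 and FGFR3 are given above, and FGFR1 was at 6.63, 5.75 and 6.82 TPM in control and 3.86, 3.73 and 3.98 TPM in shFAM111B libraries (log2 fold change −0.60, SE 0.105, adjusted p = 0.00159, from −0.73 to −0.07 over the scalings). None of the 3 reached the fold of 2 in TPM as deposited, against 23.7% of all tested genes called lower. With mitochondrial and short non-coding RNA left out, FGFR3 was called lower, against 28.6% of all tested genes. The VEGF receptor KDR, KIT and RET were listed at 0 in all 6 libraries, and FLT1, FLT4, PDGFRA and FGFR2 stayed under 1 TPM.

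Of 25 ligands of the 8 receptors, 8 were tested. IGF2, a ligand of IGF1R and INSR, was the most abundant and fell most, from 243.78, 230.02 and 227.02 TPM to 35.91, 37.51 and 34.87 TPM, with a log2 fold change of −2.66 (SE 0.0522, adjusted p = 1.08e-06, −2.80 to −2.13 over the scalings). The EGFR ligand amphiregulin (AREG) was at 36.8 ± 2.46 and 23.6 ± 2.02 TPM (−0.62, adjusted p = 0.00043), and the ERBB3 ligand NRG1 at 7.61 ± 0.288 and 3.79 ± 0.220 TPM (−0.85, adjusted p = 0.000182; SD, n = 3 each). Over the 5 scalings AREG ranged from −0.75 to −0.09, with an adjusted p under 0.05 in 3 of them. NRG1 ranged from −0.98 to −0.31, with an adjusted p under 0.05 in all 5. HBEGF, another EGFR ligand, was at 3.40 ± 0.566 and 3.52 ± 0.655 TPM and did not pass the test. NRG3 was at 3.15, 1.13 and 0.93 TPM in control and 3.61, 2.67 and 8.50 TPM in shFAM111B libraries, which overlapped (1.08, adjusted p = 0.0544). It was called higher as deposited and under all 5 scalings, but not with the replicate block, without a filter on TPM, or in 4 of the 6 fits that left out 1 library (control replicate 2 or 3, shFAM111B replicate 1 or 3). HGF, the ligand of MET, had at most 0.06 TPM, and insulin was listed at 0.

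Of 9 tested co-receptors and heparan sulfate proteoglycans, which hold growth factors at the cell surface, 4 were called lower (all genes 23.7%), KLB included. Over the 5 scalings 1 to 5 were called lower and 0 to 3 higher, against 9.07% to 28.6% and 5.66% to 18.0% of all genes. With the trend removed 1 and 1 were, against 10.2% and 8.89%. SDC4 (syndecan-4) went from 445 ± 4.23 to 164 ± 6.63 TPM (log2 fold change −1.43), the semaphorin and VEGF co-receptor NRP1 from 37.1 ± 2.82 to 13.3 ± 0.439 TPM (−1.41) and SDC3 from 4.70 ± 0.527 to 1.63 ± 0.0737 TPM (−1.11). They were called lower under 3, 2 and 1 of the 5 scalings, and each had an adjusted p under 0.05 under all 5. Glypican-3 (GPC3), an HCC surface marker, was the most abundant and higher in the knockdown, at 618.44, 615.45 and 617.76 against 876.23, 881.10 and 863.17 TPM (0.50, adjusted p = 1.85e-05), although under quantile normalization the value was 0.03. NRP2, the relative of NRP1, was at 3.18, 3.36 and 2.88 TPM in control and 5.50, 5.99 and 9.68 TPM in shFAM111B libraries, higher without overlap (0.93, adjusted p = 0.00432), and was called higher under 4 of the 5 scalings. SDC1 was also higher (0.48, adjusted p = 0.00177), and SDC2 was at 0.17 (adjusted p = 0.0387).

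Adaptors and attenuators were read against the 23.7% of all tested genes called lower. Of 20 adaptors and proximal effectors, 10 were called lower and none higher, and the median was −1.02, or −0.66 relative to the median gene. PTPN11 (SHP2), a phosphatase needed for RAS activation by most receptors, went from 66.2 ± 3.07 to 11.7 ± 0.286 TPM (−2.40). The RAS exchange factor SOS1 went from 10.3 ± 0.791 to 1.45 ± 0.244 TPM (−2.20) and the adaptor CRKL from 43.5 ± 2.17 to 12.7 ± 1.15 TPM (−1.70). The most abundant, SHC1 and GRB2, were lower by less (−0.80 and −0.67), and PLCG1 was at −0.06 (adjusted p = 0.751). FRS2 and IRS1, the docking proteins of the FGF and the insulin and IGF receptors, were at −1.62 and −1.10. Of the 20, 8 were called lower under median-of-ratios, upper-quartile and quantile scaling each, against 12.5%, 13.3% and 12.8% of all genes. With median centring 5 were (all genes 9.07%), and with mitochondrial and short non-coding RNA left out 13 were (all genes 28.6%). With the trend removed, 3 of the 20 were called lower, against 10.2% of all genes, and the median was −0.31.

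Of 18 tested genes listed as attenuators, which act on receptor signalling or turnover, 11 were called lower and none higher. Their median was −1.11, or −0.75 relative to the median gene. ERRFI1 (MIG6), a feedback inhibitor of EGFR, went from 150.36, 140.79 and 135.76 TPM to 26.38, 31.68 and 26.23 TPM (−2.30, SE 0.0854, adjusted p = 2.85e-06). The adaptor SH2B3 went from 19.7 ± 0.261 to 3.45 ± 0.248 TPM (−2.22) and USP8, a deubiquitinase that acts on internalised EGFR, from 27.9 ± 1.83 to 7.17 ± 0.521 TPM (−1.82). FGFRL1, a receptor of the FGF family without a kinase domain, the phosphatase PTPN1 and LRIG3 were called lower as well (−1.17, −1.08 and −1.58). LRIG3 was called lower under all 5 scalings, and FGFRL1 and PTPN1 under 1 of them each. GRB14 (0.37, adjusted p = 0.0701) and GRB10 (−0.15, adjusted p = 0.285) did not pass the test. Under the 4 scalings that set libraries to a common centre, 5 or 6 of the 18 were called lower, against 9.07% to 13.3% of all genes. With mitochondrial and short non-coding RNA left out 12 were, against 28.6% of all genes. With the trend removed 2 were, against 10.2% of all genes.

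Genes of the FGF19 and bile acid axis moved in both directions. Of 14 tested, FGF19, KLB and FGFR4 included, 3 were called lower and 1 higher, against 23.7% and 6.82% of all genes, with a median of −0.42, or −0.06 relative to the median gene. Over the 5 scalings 1 to 4 were called lower and 0 or 1 higher, against 9.07% to 28.6% and 5.66% to 18.0% of all genes. With the trend removed none was called in either direction, against 10.2% lower and 8.89% higher. The liver transcription factors HNF4A (99.64, 95.71 and 98.99 against 40.46, 42.98 and 38.50 TPM, −1.25) and NR5A2 (18.6 ± 1.73 against 6.09 ± 0.362 TPM, −1.47) were called lower, as they were under 2 and 3 of the 5 scalings. SLC51B, a subunit of the basolateral bile acid exporter, was called higher (33.7 ± 2.15 against 71.3 ± 8.23 TPM, 1.05), also under 4 of the 5 scalings. That call was lost without shFAM111B replicate 3. NR1H4 (FXR), the bile acid receptor that induces FGF19 in the intestine, was at 40.2 ± 2.04 and 35.5 ± 4.71 TPM with overlapping libraries (−0.18, adjusted p = 0.152). NR0B2 (SHP), a repressor downstream of FGFR4 and FXR, was at 9.65 ± 1.63 and 6.98 ± 1.23 TPM, also overlapping (−0.42, adjusted p = 0.0493, 0.12 with median centring). CYP7A1, the rate-limiting enzyme of bile acid synthesis and the classical target of FGF19, was listed at 0 in all 6 libraries. ATF4, an inducer of FGF19 under stress, was the most abundant of the list at 512 ± 12.4 and 458 ± 27.2 TPM (−0.16, adjusted p = 0.0284), and its sign turned under median-of-ratios, upper-quartile and median-centred scaling.

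FGF19 lies on 11q13, next to CCND1, in a region that is amplified in some HCC. Of 6 tested genes of the region, 2 were called lower (all genes 23.7%) and none higher. Rescaling without mitochondrial and short non-coding RNA called 3 lower (all genes 28.6%) and quantile normalization 1 (all genes 12.8%). The other 3 scalings and the fit with the trend removed called none lower, and median centring called 1 higher (all genes 18.0%). The actin regulator CTTN went from 148 ± 6.73 to 64.1 ± 4.15 TPM (−1.20) and PPFIA1 from 39.8 ± 2.63 to 18.2 ± 1.18 TPM (−1.09). Cyclin D1 (CCND1) went from 88.1 ± 2.02 to 54.6 ± 2.02 TPM (−0.68, adjusted p = 2.39e-05), whereas FADD was higher, from 29.4 ± 1.97 to 42.1 ± 1.37 TPM (0.50, adjusted p = 0.000447). LTO1 was at −0.19 with overlapping libraries (adjusted p = 0.115). FGF3 and FGF4, the other fibroblast growth factor genes of the region, were listed at 0. Neighbours of FGF19 thus moved in both directions, with FADD higher under all 5 scalings.

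By distance between log2(TPM + 1) profiles over the 6 libraries, each centred on its own mean, genes close to FGF19 among 12037 protein-coding genes were TTC13, ZNF282, VGLL4 and C6, at distances of 0.101 to 0.140. Those most like FGFR4 were PLIN3, ELAC2, SLC43A1, HABP4 and TEX10, at 0.0751 to 0.0833. The profiles share 6 libraries in 2 groups, so genes with a similar difference between the groups lie close in this measure.

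Markers of other cell types were read in the same libraries. The hepatocyte markers moved both ways, 4 of 9 called higher and 1 lower, against 6.82% and 23.7% of all genes. Called higher were 2 without shFAM111B replicate 3 (918 of all 14394 tested genes). With mitochondrial and short non-coding RNA left out 1 was (all genes 5.66%), and with the trend removed 1 was (all genes 8.89%). AFP went from 7274 ± 200 to 23062 ± 1726 TPM (1.66), APOA2 and APOA1 by 1.00 and 1.11, and ALB from 6444 ± 41.1 to 4161 ± 185 TPM (−0.63; SD, n = 3 each). AFP was called higher under all 5 scalings and APOA1 and APOA2 under 4 of them. The summed TPM of the 9 were 31966, 32213 and 31942 in control and 51092, 49122 and 56005 in shFAM111B libraries. Of the cholangiocyte markers, 2 of the 4 tested were called higher and 1 lower, against 6.82% and 23.7% of all genes, with KRT19 up from 30.61, 28.08 and 34.27 to 171.12, 145.35 and 182.14 TPM (2.38) and SOX9 down from 58.5 ± 0.568 to 22.1 ± 0.519 TPM (−1.37, called lower under 2 of the 5 scalings and not with the trend removed). Their sums were 126, 120 and 124 against 242, 214 and 247 TPM, and KRT7 had at most 0.38 TPM.

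Most markers of non-epithelial cells were low, whereas LYZ was at 262 ± 3.47 and 304 ± 16.4 TPM in control and shFAM111B libraries. The endothelial list summed to 1.26 to 3.49 TPM in every library, nearly all of it PECAM1, with VWF, CDH5, TEK and KDR at 0.04 TPM or less. Among fibroblast and stellate markers, summed at 9.72 to 21.3 TPM, COL1A2 was the most abundant (6.68 ± 1.30 against 10.1 ± 1.93 TPM) and LUM was called higher (0.883 ± 0.238 against 2.79 ± 0.520 TPM, 1.01), though not without control replicate 1 or 3 or shFAM111B replicate 2, and DCN and ACTA2 had at most 0.10 and 0.53 TPM. The leukocyte list summed to 280 to 288 TPM in control and 312 to 343 TPM in shFAM111B libraries, almost all of it LYZ, while CD3E and PTPRC had at most 0.13 and 2.39 TPM. CD68 was higher, at 16.3 ± 1.30 and 22.6 ± 0.755 TPM without overlap (0.45, adjusted p = 0.0016). The part of these markers in the changes of the receptors was not tested.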

How the data were processed

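Huh7 RNA was sequenced in 6 libraries, 3 control and 3 shFAM111B, and Hep3B was not analysed here. TPM of each library were deposited by the authors, in a table that also holds group means and their own fold changes and p-values, which were not used. The submitters' processing notes name RSEM, DESeq2 and hg38, without versions. The aligner and the strand setting of the counting are not given in the sources used here. The labels describe a stranded poly(A) kit and the methods of the study a TruSeq kit. TPM are relative and keep no depth, so no count test was run and no counting error can be given.

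Genes that reached 1 TPM in 3 or more libraries were tested (14394 of 60666). The log2(TPM + 1) values were compared in limma 3.58.1 (R 4.3.3, lmFit and eBayes with a trend, no covariates), with Benjamini-Hochberg adjustment over all tested genes. A call required a 2-fold or larger change with P under 0.05. Shares and ratios were compared by two-sided exact permutation tests. No 2 libraries shared identical TPM in more than 0.889% of tested genes. Positions and transcript lengths came from GENCODE release 29 (GRCh38), matched by identifier for 96.3% of listed genes. Promoters came from RefSeq (GRCh38.p14). The fit was tested on simulated data. Alternatives were other filters, a pseudocount of 0.1, a replicate block, leaving out each library, 5 other scalings and a loess fit (span 0.75) on length and mean expression. Quantile normalization of the shares and ratios was added after seeing the data. Python 3.11.15 with pandas 2.3.3, numpy 2.4.6, scipy 1.17.1 and matplotlib 3.10.9 was used.

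The 10 genes and all lists were chosen with earlier results of these data known. Beside the 10 genes and FAM111B, the rule for naming took from each list the 4 tested genes with the highest mean TPM and the 3 called genes with the largest change, and the 5 genes nearest to FGF19 and to FGFR4. The result of 1 gene that this rule names is not reported here. EPHA5, NRP2, FRS2, IRS1, GRB10, GRB14, NR1H4, NR0B2, HGF, the genes listed at or near 0 and the genes that overlap EGFR and ERBB2 were named after their values had been seen.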

Additional observations from a re-analysis of the deposited data

How the results depend on the processing

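Of the log2 fold changes of the 10 genes and FAM111B under all alternatives, 159 kept their direction and their side of an adjusted p of 0.05 (limma), 8 kept the direction only and 8 turned. ERBB3 turned to 0.0462 with median-of-ratios, 0.0067 with upper-quartile and 0.14 with median-centred scaling and to 0.29 with the length and expression trend removed. FGFR4 turned to 0.0292 with median-of-ratios scaling and 0.11 with median centring. MET and INSR turned to 0.13 and 0.44 with the trend removed. The cause was not tested. Of the 10 genes, 6 were called lower when mitochondrial and short non-coding RNAs were left out of the total (ERBB2, FGF19 and FGFR3 added), against 28.6% of all genes. With the trend removed 0 were (all genes 10.2%), and 3 to 4 were when 1 library was left out (all genes 3362 to 3554 of 14394).

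Over all tested genes, 3409 were called lower and 981 higher. The counts lower and higher were 1798 and 2030 with median-of-ratios, 1910 and 1899 with upper-quartile, 1849 and 1694 with quantile and 1305 and 2597 with median-centred scaling, and 1452 and 1268 with the trend removed. With at least 1 TPM required in every library, 11853 genes were tested, and 2807 were called lower and 634 higher. Of the 82 other tested genes of the pathway lists, 33 were called lower (40.2%) and 3 higher (3.66%), against 23.7% and 6.82% of all genes. Called lower were 17, 20, 19 and 13 under those 4 scalings (all genes 12.5%, 13.3%, 12.8% and 9.07%) and 9 with the trend removed (10.2%). Called higher were 10 with median centring (all genes 18.0%) and 6 with the trend removed (8.89%). Leaving out 1 library gave 1 to 4 called higher, the 1 without shFAM111B replicate 3. The difference in the INSR share ranged from −0.0538 to 0.192 percentage points, the negative value again without shFAM111B replicate 3.

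With FGFR4 left out of the receptor sum, the differences in share (shFAM111B minus control) were −5.82 percentage points for EGFR, −1.58 for ERBB2, 7.19 for ERBB3, 0.406 for MET, 0.160 for FGFR3, −1.43 for IGF1R and 1.08 for INSR. After quantile normalization, chosen after seeing the data, they were −2.11 for EGFR, −0.693 for ERBB2, 3.43 for ERBB3, 0.693 for MET, −0.295 for FGFR4, −1.43 for FGFR3, −0.523 for IGF1R and 0.932 for INSR. A fit with the replicate block called the same number of the 10 genes lower (3), with 3410 genes lower and 996 higher overall. The deviations of same-numbered libraries correlated at 0.054, 0.0349 and 0.0908, and those of differently numbered libraries at −0.0763 to 0.0442. All were weak, and whether the replicate numbers pair the libraries was not settled by them. The depth behind the TPM is unknown, so the precision of low values such as IGF1R in the knockdown rests on 3 libraries alone.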
